A study of Mus musculus with 16 samples.

Results

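Mitotane, a derivative of the insecticide DDT and the standard drug against adrenocortical carcinoma, was compared with control treatment in tumours of H295R, a human adrenocortical carcinoma cell line that makes corticosteroids, grown in SCID mice, which lack mature lymphocytes. Members were the 4 arrays labelled mitotane and the 4 labelled control, 8 of the 16 arrays of the study. Both groups came from mice bearing the same tumour line and treated by mouth for 28 days. The remaining arrays held tumours given 9-cis retinoic acid (9-cisRA), alone or with mitotane, and served here only to estimate the spread. The labels give no dose, no vehicle and no animal number, and record 43 mice in all. Nothing says that the replicates came from separate animals, so the p-values below measure only the spread between these arrays, which may be technical.

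Each array was an Agilent 1-colour human expression array, with 1 array of each group on each of 4 slides, and the replicate number is the slide number. Values are log2, scaled to the upper range of each array and centred on each probe's median over the 16 arrays, so that 0 is the median array and levels of different genes cannot be compared. In every sentence below, 4 values of a group follow the order of replicates 1 to 4. The tumour is human and the host is a mouse: mouse stroma, vessels and blood also lie in such tissue, and the probes were designed for human transcripts. In bulk tissue of this kind, fewer cells of a type and less RNA per cell cannot be told apart.

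The files give RefSeq and other identifiers and no gene symbols, and the annotation tables used here were for the mouse. Symbols were therefore assigned from general knowledge of human RefSeq identifiers, without a table to check them against, so each symbol below should be read with that limit. RefSeq identifiers of the genes the results turn on are given with them. Identifiers whose symbol was not known with certainty stayed unnamed, so the rankings of genes below run over the named identifiers.

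Adrenocortical cells take up cholesterol, store it as esters made by SOAT1, and pass it through STAR into mitochondria, where CYP11A1 cuts the side chain to give pregnenolone, the precursor of all steroid hormones. Mitotane is known to act on adrenocortical mitochondria and steroid output, to inhibit SOAT1 so that free cholesterol builds up, and to trigger endoplasmic reticulum (ER) stress with induction of DDIT3 (CHOP) in cultured adrenocortical cells. The question was whether transcripts of these systems, or any others, differed between tumours after the full course of treatment.

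Control replicate 4 stood apart from the other 7 arrays before any comparison. Its 75th percentile of intensity was 224, against 607 to 1061 on the others, and 61.7% of its probes were well above background, against 70.4% to 74.8%. Its median correlation with the other arrays was 0.871, against 0.985 to 0.989 for the other 7. The SD of its values over identifiers was 1.39, against 0.28 to 0.36, and its median value was -0.31. On its slide, 32.1% of identifiers differed over 2-fold between mitotane and control, against 1.87% to 4.24% on slides 1 to 3. Changes of most genes are therefore given for 7 arrays, without control replicate 4, and for all 8. Mitotane replicate 4 then has no control on its slide, and values over slides 1 to 3 alone are added for some groups. Every change below is mitotane minus control on the log2 scale, given as ± SE, from 4 mitotane against 3 (7 arrays) or 4 (8 arrays) control arrays.

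No transcript passed the test between mitotane and control after adjustment for multiple testing (limma, Benjamini-Hochberg adjusted p under 0.05). With 8 arrays, 0 of 21045 identifiers tested (0.0%) passed, the lowest adjusted p being 0.727, and 1236 (5.87%) had an unadjusted p under 0.05, 993 of them higher (4.72%) and 243 lower (1.15%) under mitotane. With 7 arrays, 0 of 21045 (0.0%) passed, the lowest adjusted p being 0.69, and 1407 (6.69%) had an unadjusted p under 0.05, 823 higher (3.91%) and 584 lower (2.78%). With only the control and mitotane arrays fitted, 0 passed and the lowest adjusted p was 0.196 with 8 arrays and 0.121 with 7. With array weights, the only setting run that made any call, 3 identifiers passed with 8 arrays and 1 with 7, none of them among the named identifiers. No gene below is therefore called changed, and unadjusted p-values serve only to rank. Of 58 genes named below with an unadjusted p under 0.05 with 7 arrays, 48 stayed under it with the slide as a block, and 10 did not (AURKB, AXIN1, DNM1L, GCLM, MAD2L1, NPC2, PCNA, PLIN2, PLK1 and TAP1). Many of the 58 were named for a small p on these same arrays, so these counts are no independent check. The balance of directions depended on scaling: with each array centred on its own median, 464 were higher and 459 lower with 8 arrays, and 558 higher and 882 lower with 7.

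The intervals hold for each identifier taken alone, without adjustment for the number tested, and reflect only the spread between arrays. The arrays behind that spread include combined replicate 4, with 58.0% of its probes well above background and 589 outlier spots. With 7 arrays, the 95% interval of the change lay within 2-fold either way for 18382 identifiers (87.3%), and with 8 arrays for 16143 (76.7%). The median change over all identifiers was 0.063 with 7 arrays and 0.078 with 8 on the log2 scale, and changes below should be read against it. Control and mitotane values did not overlap for 1344 identifiers higher (6.39%) and 788 lower (3.74%) with 7 arrays, and for 655 higher (3.11%) and 155 lower (0.737%) with 8. Of 474 list genes tested, 8 had more than 1 tested identifier, and the brighter one stood for the gene.

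Transcripts of the steroid pathway lay close to control levels once control replicate 4 was left out. In the mitochondrial entry group, 10 genes for cholesterol import and side-chain cleavage, the median log2 change was 0.0035 with 7 arrays and 0.26 with 8, and 0 of 10 had an unadjusted p under 0.05 in either. For the 8 tested enzymes after pregnenolone the medians were -0.0025 and 0.22, again with 0 of 8. Of all identifiers, 6.69% had an unadjusted p under 0.05 with 7 arrays and 5.87% with 8. Every one of these 8 enzymes had a change above 0 with 8 arrays and 4 of 8 had one with 7, beside 60.1% and 61.7% of all identifiers. The interval lay within 2-fold for 9 of 10 entry genes and 7 of 8 enzymes with 7 arrays, beside 87.3% of all identifiers. With 8 arrays it did so for 9 of 10 entry genes and 5 of 8 enzymes, beside 76.7%.

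STAR (NM_000349), which carries cholesterol to the inner mitochondrial membrane, read 0.53, -0.076, -0.32 and -1.10 on the control arrays and 0.24, 0.27, 0.34 and -0.47 on the mitotane arrays. Mitotane replicates 1 to 3 lay within the spread of control replicates 1 to 3, and replicate 4 of each group was the lowest of its group. The change was 0.049 ± 0.23 (SE) with 7 arrays, interval -0.44 to 0.54, and 0.34 ± 0.28 with 8. CYP11A1 (NM_000781) read 0.40, 0.093, -0.13 and -0.86 under control and 0.25, 0.35, 0.15 and -0.026 under mitotane, a change of 0.061 ± 0.17 with 7 arrays, interval -0.31 to 0.43. With 8 arrays it was 0.31 ± 0.23, interval -0.18 to 0.80. The groups overlapped in both. FDX1 and FDXR, the electron carriers of CYP11A1, gave -0.20 ± 0.23 and 0.073 ± 0.14 with 7 arrays and 0.067 ± 0.27 and 0.24 ± 0.18 with 8. TSPO, an outer-membrane protein long studied in cholesterol import, gave 0.19 ± 0.13 with 7 arrays and 0.33 ± 0.16 with 8, and its mitotane and control values overlapped. The widest departure in the group was ACBD3, a Golgi protein that binds TSPO, at -0.63 ± 0.32 with 7 arrays (unadjusted p = 0.0727) and -0.21 ± 0.40 with 8, with mitotane values from -0.71 to 0.50.

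Among the enzymes, CYP17A1 (NM_000102), which makes cortisol and androgen precursors, read 0.89, -0.13, -0.46 and -1.06 under control and 0.035, -0.035, 0.14 and -0.31 under mitotane. Control replicate 1 was the highest of the 8 arrays and control replicate 4 the lowest, so the control spread held every mitotane value. Its change was -0.14 ± 0.26 with 7 arrays, interval -0.70 to 0.42, and 0.15 ± 0.30 with 8. CYP21A2, the 21-hydroxylase, gave -0.012 ± 0.23 with 7 arrays, interval -0.50 to 0.48, and 0.21 ± 0.26 with 8, and its probe may also read the near-identical pseudogene. HSD3B2, which converts pregnenolone to progesterone, gave -0.049 ± 0.41 with 7 arrays, interval -0.92 to 0.82, and 0.22 ± 0.41 with 8. The aldosterone synthase CYP11B2 read 0.96, 0.78, -0.79 and -0.70 under control and 0.81, 1.05, 1.07 and -0.94 under mitotane, so that high and low arrays occurred in both groups, and its 7-array interval of -1.19 to 1.55 was the widest of the enzymes. Probes for CYP11B1, the cortisol-forming 11-beta-hydroxylase, and HSD11B1 were not well above background on any of the 8 arrays. POR and CYB5A, the electron donors of CYP17A1, gave 0.031 ± 0.19 and -0.072 ± 0.10 with 7 arrays and 0.28 ± 0.24 and 0.16 ± 0.18 with 8.

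**Figure D1:**
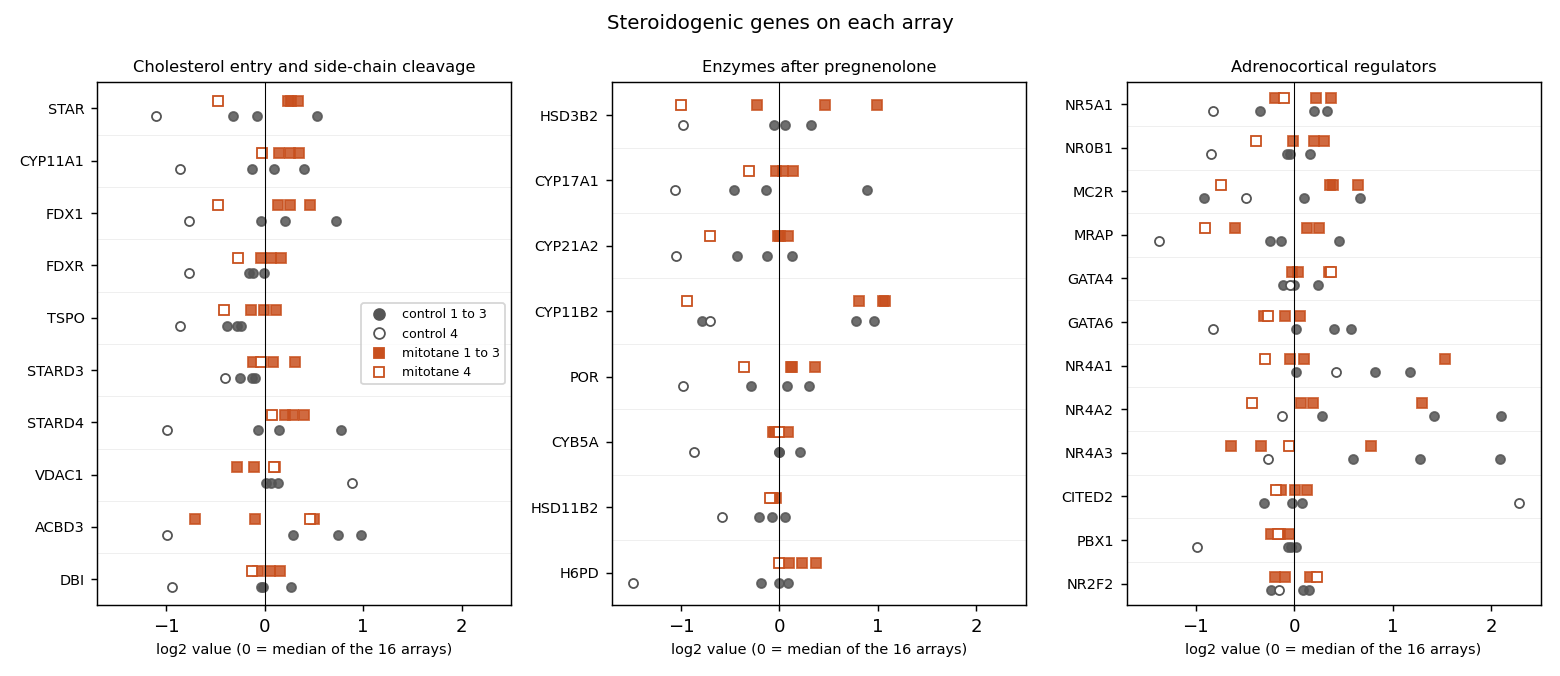
Log2 values (x axis; 0 is the median of the 16 arrays) of the tested genes of cholesterol entry, later steroid enzymes and adrenocortical regulators (y axis) on each array; circles are control and squares mitotane, open symbols replicate 4. Control replicate 4 is the lowest control for most of the entry genes and enzymes, with STAR at -1.10 and CYP11A1 at -0.86, while the other symbols of the 2 groups are intermixed.

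Replicate 4 was low in both groups for these genes. The median value of the 10 entry genes was 0.20, 0.027, -0.083 and -0.86 on the control arrays and 0.17, 0.11, 0.15 and -0.078 on the mitotane arrays, and that of the 8 enzymes was 0.25, 0.056, -0.23 and -0.98 and 0.082, 0.16, 0.091 and -0.33. Over slides 1 to 3 alone, which leave out both replicate 4 arrays, the median change was 0.072 for the entry genes and 0.17 for the enzymes, beside 0.071 for all identifiers. Of the 10 entry genes, 2 then had an unadjusted p under 0.05, TSPO higher at 0.29 ± 0.13 and ACBD3 lower at -0.77 ± 0.34, and of the 8 enzymes 0. Of all 21045 identifiers, 1466 had one over slides 1 to 3, 772 of them higher and 694 lower. CYP11A1 gave 0.13 ± 0.18 and STAR 0.24 ± 0.20. The part of the slide in the steroid genes' values was not tested further.

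Among regulators of adrenocortical identity, NR5A1 and NR0B1 lay near control, and GATA6 and 2 of the 3 NR4A receptors lay lower with 7 arrays. NR5A1 (SF-1, the master regulator of steroidogenic genes) gave 0.013 ± 0.19 with 7 arrays and 0.24 ± 0.23 with 8, NR0B1 (DAX-1, its repressor) 0.0091 ± 0.24 and 0.22 ± 0.26, and GATA4 0.14 ± 0.15 and 0.17 ± 0.15. MC2R, the ACTH receptor, gave 0.21 ± 0.48 and 0.32 ± 0.44, with control values from -0.92 to 0.67. GATA6 (NM_005257), a transcription factor of the adrenal cortex, read 0.58, 0.40, 0.02 and -0.83 under control and 0.057, -0.30, -0.093 and -0.26 under mitotane. Control replicates 1 and 2 were above every mitotane array and control replicate 4 was below them all. Its change was -0.48 ± 0.19 with 7 arrays (unadjusted p = 0.0244) and -0.19 ± 0.26 with 8. WT1 was not well above background on any of the 8 arrays. Of the 12 tested regulators, 3 had an unadjusted p under 0.05 and were lower with 7 arrays (GATA6, NR4A2 and NR4A3), and 1 (NR4A3) with 8. Of all identifiers, 2.78% were lower at that level with 7 arrays and 1.15% with 8.

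NR4A3 (NM_173200), NR4A2 and NR4A1 are orphan nuclear receptors that hormone and stress signals induce within minutes to hours, and that act on steroid gene promoters. NR4A3 read 2.08, 0.60, 1.28 and -0.26 under control and -0.34, -0.64, 0.78 and -0.055 under mitotane. Control replicates 1 to 3 spanned from below to well above mitotane replicate 3, and both replicate 4 arrays were near the other mitotane arrays. The change was -1.38 ± 0.33 with 7 arrays (interval -2.10 to -0.67, unadjusted p = 0.00101) and -0.99 ± 0.40 with 8, and a second identifier of the gene, dimmer on these arrays, gave 0.48 and 0.78. With the slide as a block the 7-array value was -1.38 ± 0.31. NR4A2 read 2.10, 0.28, 1.41 and -0.12 under control and 0.19, 0.07, 1.30 and -0.43 under mitotane, a change of -0.98 ± 0.40 with 7 arrays and -0.63 ± 0.43 with 8. NR4A1 gave -0.34 ± 0.40 and -0.28 ± 0.36.

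The immediate early genes, which growth and stress signals switch on without new protein synthesis, varied widely within each group. FOSB (NM_006732), an AP-1 subunit, read 3.36, 1.58, 4.17 and -0.0031 under control and 1.15, 0.48, 3.17 and 0.0031 under mitotane. Slides 1 and 3 were high for control and slide 3 was high for mitotane, and the groups overlapped. Mitotane minus control was -2.21, -1.10, -1.0 and 0.0061 on slides 1 to 4, and the change was -1.83 ± 0.68 with 7 arrays (unadjusted p = 0.0171) and -1.07 ± 0.77 with 8. FOS read 1.73, 0.061, 1.85 and 0.27 and 0.53, -0.37, 2.28 and -0.53, with control 1, control 3 and mitotane 3 again the high arrays, and gave -0.73 ± 0.59 with 7 arrays and -0.50 ± 0.55 with 8. SRF, the factor that drives FOS transcription, did not overlap between groups in either comparison, at -0.20 ± 0.15 with 7 arrays and -0.62 ± 0.30 with 8, where control replicate 4 read 1.95. Over the 15 genes of the list, the median change was -0.19 with 7 arrays and -0.12 with 8, but 0.071 over slides 1 to 3. The list held 1 gene with an unadjusted p under 0.05 with 7 arrays (FOSB, lower) and 0 with 8, beside 6.69% and 5.87% of all identifiers. The list's median value per array was 0.33, -0.014, 0.92 and -0.0031 for control and 0.26, -0.00094, 1.20 and -0.061 for mitotane, so that slide 3 was the highest in both groups.

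Cholesterol storage and transport showed small differences. SOAT1 (NM_003101), the sterol O-acyltransferase that mitotane inhibits, read 0.052, 0.22, 0.035 and -0.85 under control and 0.14, -0.11, -0.035 and -0.13 under mitotane. Mitotane replicate 1 lay among control replicates 1 to 3, and the other mitotane arrays lay below those and above control replicate 4. The change was -0.14 ± 0.10 with 7 arrays, interval -0.36 to 0.088, and 0.10 ± 0.19 with 8. SCARB1, the receptor for HDL cholesterol, gave 0.067 ± 0.17 with 7 arrays and 0.22 ± 0.19 with 8, and ABCA1, the cholesterol exporter, 0.08 ± 0.16 and 0.15 ± 0.16. NR1H3 (LXR-alpha, the oxysterol receptor) read -0.078, -0.15, -0.23 and -0.50 under control and 0.04, -0.044, 0.11 and 0.12 under mitotane. Every mitotane value was above every control value, with a change of 0.21 ± 0.11 with 7 arrays (unadjusted p = 0.0755) and 0.29 ± 0.13 with 8. PLIN2, a lipid droplet coat protein, was 0.32 ± 0.14 with 7 arrays (unadjusted p = 0.0353) and 0.026 ± 0.23 with 8, where control replicate 4 read 0.96. NPC2, the lysosomal cholesterol carrier, was -0.23 ± 0.11 with 7 arrays and 0.019 ± 0.20 with 8. All 14 genes had intervals within 2-fold in both comparisons, beside 87.3% of all identifiers with 7 arrays and 76.7% with 8.

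The SREBP-driven genes of sterol synthesis, which cells raise when ER cholesterol is low and lower when it is high, numbered 24 tested. With 7 arrays, 0 of 24 had an unadjusted p under 0.05, beside 6.69% of all identifiers. A change above 0 was found for 14 of 24, beside 61.7%, and the median was 0.041. With 8 arrays, 2 of 24 were higher at an unadjusted p under 0.05, MVK and NSDHL, beside 4.72% of all identifiers. The 8-array median was 0.14. MVK, mevalonate kinase, gave 0.32 ± 0.17 with 7 arrays and 0.41 ± 0.18 with 8, and MVD, mevalonate decarboxylase, 0.36 ± 0.19 and 0.038 ± 0.28.

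**Figure D2:**
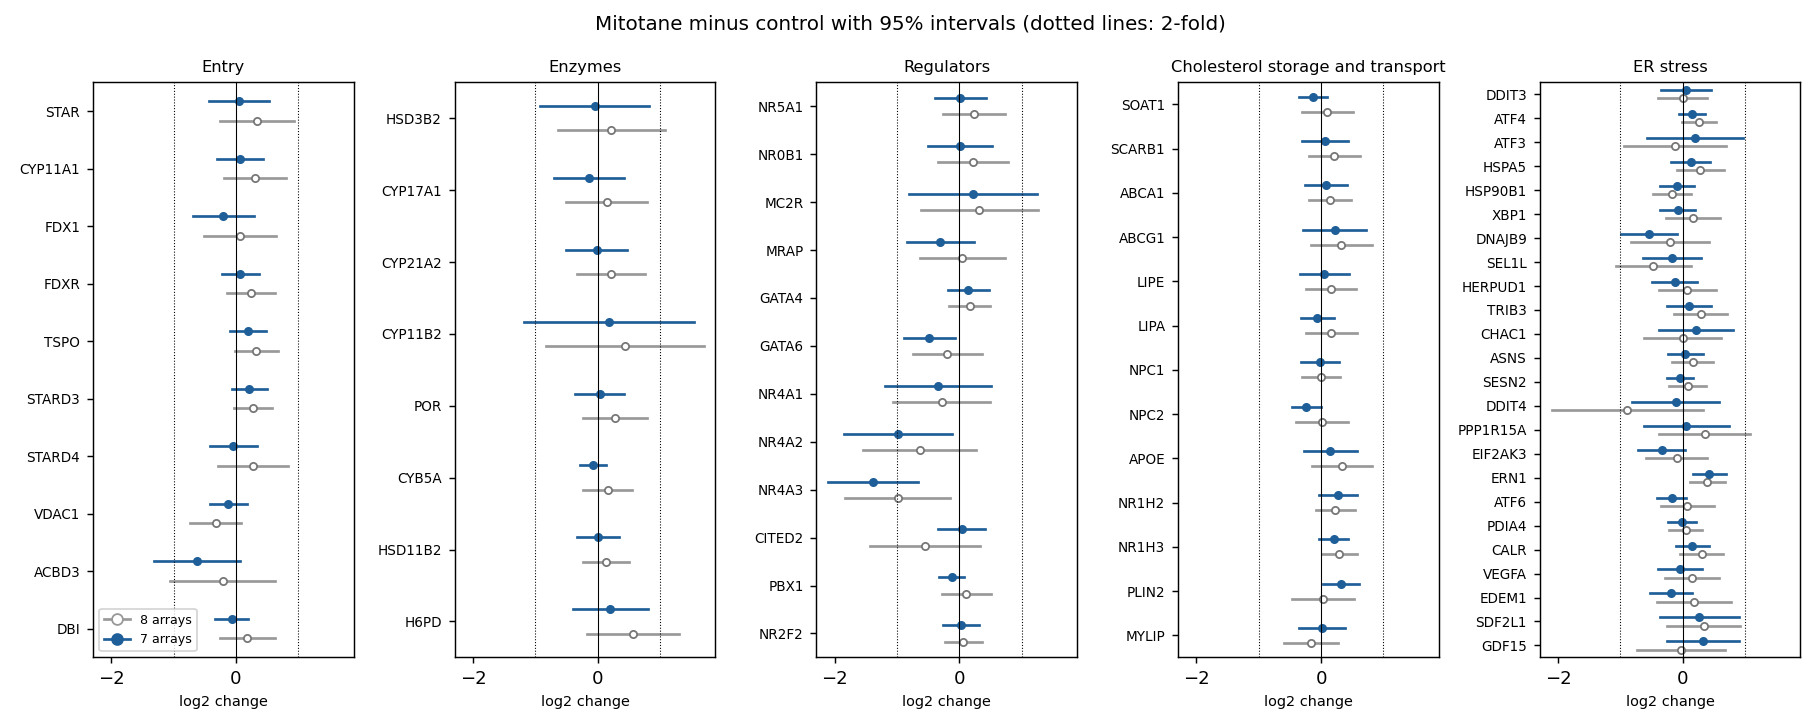
Log2 change, mitotane minus control, with its 95% interval from limma (x axis) for genes of cholesterol entry, steroid enzymes, regulators, cholesterol storage and ER stress (y axis); grey open points are 8 arrays, blue points 7 arrays, and dotted lines mark 2-fold. With 7 arrays, CYP11A1 lies at 0.06 and SOAT1 at -0.14, both with intervals well inside 2-fold, and NR4A3 lies farthest from 0 at -1.38.

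ER stress genes lay near control, with ERN1 the one gene higher on every mitotane array at a low unadjusted p. DDIT3 (NM_004083), the transcription factor CHOP that mitotane induces in cultured adrenocortical cells, read -0.15, 0.17, 0.32 and 0.35 under control and 0.29, 0.16, 0.49 and -0.26 under mitotane. The groups overlapped throughout, and the change was 0.057 ± 0.19 with 7 arrays, interval -0.34 to 0.45, and -0.0021 ± 0.18 with 8, interval -0.39 to 0.39. HSPA5 (BiP, the main ER chaperone) gave 0.13 ± 0.14 with 7 arrays and 0.28 ± 0.18 with 8. ATF3 varied from -0.20 to 1.70 over the 8 arrays and gave 0.20 ± 0.36 with 7 and -0.12 ± 0.39 with 8. XBP1, TRIB3 and ATF4 gave -0.079 ± 0.13, 0.10 ± 0.16 and 0.15 ± 0.10 with 7 arrays and 0.16 ± 0.20, 0.29 ± 0.20 and 0.26 ± 0.13 with 8. ERN1 (NM_001433, IRE1-alpha, the sensor that splices XBP1 mRNA) read -0.34, -0.11, -0.065 and -0.061 under control and 0.15, 0.19, 0.30 and 0.37 under mitotane. All mitotane arrays were above all control arrays, by 0.49, 0.30, 0.36 and 0.43 on slides 1 to 4, and the change was 0.42 ± 0.12 with 7 arrays (unadjusted p = 0.00388) and 0.40 ± 0.13 with 8. DNAJB9, a chaperone transcribed downstream of XBP1, was -0.54 ± 0.21 with 7 arrays (unadjusted p = 0.0236) and -0.20 ± 0.29 with 8. Of the 24 tested genes, 1 was higher and 1 lower at an unadjusted p under 0.05 with 7 arrays and 1 was higher with 8. Of all identifiers, 3.91% were higher and 2.78% lower at that level with 7 arrays, and 4.72% were higher with 8. The list's median change was 0.014 with 7 arrays and 0.078 with 8.

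Apoptosis genes gave a median of 0.14 over 22 tested with 7 arrays, above the 0.063 of all identifiers. An unadjusted p under 0.05 was found for 1 of the 22, beside 6.69% of all identifiers. This was BMF, a BH3-only protein that binds BCL2, at 0.45 ± 0.18 with 7 arrays and 0.13 ± 0.27 with 8, where control replicate 4 read 1.08. BBC3 (PUMA), a p53 target of the same class, gave 0.51 ± 0.27 with 7 arrays and 0.18 ± 0.33 with 8, and BID, which links death receptors to mitochondria, 0.22 ± 0.13 and 0.46 ± 0.20. CDKN1A (p21), the p53 target that halts the cell cycle, read -0.086, 0.086, 0.33 and -0.52 under control and 0.27, 0.54, 0.95 and 0.51 under mitotane. The groups overlapped between control replicate 3 and mitotane replicate 1, and the change was 0.46 ± 0.23 with 7 arrays and 0.62 ± 0.24 with 8 (unadjusted p = 0.0632 and 0.0197).

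Mitochondrial genes gave no list-wide difference. The 37 nuclear genes of the respiratory chain had a median of -0.039 with 7 arrays and 0.14 with 8. With 7 arrays the interval lay within 2-fold for all 37, beside 87.3% of all identifiers. CYCS (cytochrome c), the electron carrier whose release triggers apoptosis, read 0.43, 0.36, 0.21 and -0.86 under control and 0.15, -0.11, -0.10 and 0.049 under mitotane. Without control replicate 4 the groups did not overlap, at -0.34 ± 0.11 (unadjusted p = 0.0104), and with it the change was -0.038 ± 0.23. Among 20 genes of mitochondrial upkeep, PPARGC1B, a coactivator of mitochondrial biogenesis, was 0.53 ± 0.14 with 7 arrays and 0.16 ± 0.27 with 8, where control replicate 4 read 1.29. DNM1L, the fission GTPase, was -0.22 ± 0.092 with 7 arrays and 0.024 ± 0.19 with 8.

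Mitotane is known to induce drug-metabolising enzymes of the liver through the nuclear receptor PXR. In the tumour, 0 of 15 tested xenobiotic genes had an unadjusted p under 0.05 in either comparison, beside 6.69% of all identifiers with 7 arrays and 5.87% with 8. CYP2B6 gave 0.25 ± 0.14 with 7 arrays and -0.11 ± 0.27 with 8, and the drug efflux pump ABCB1 0.16 ± 0.13 and 0.26 ± 0.15. The direction of ABCG2, another efflux pump, turned with control replicate 4, which read 4.91: the change was 0.90 ± 0.43 with 7 arrays and -0.43 ± 0.93 with 8. Among 19 NRF2 and glutathione genes, GCLM, the regulatory subunit of the enzyme that begins glutathione synthesis, did not overlap between groups, at 0.30 ± 0.12 with 7 arrays (unadjusted p = 0.0238) and 0.27 ± 0.13 with 8. RXRA (NM_002957), the shared partner of retinoid, LXR and PXR receptors and a receptor for 9-cisRA, read -0.059, -0.13, -0.31 and -0.94 under control and -0.017, 0.28, 0.27 and 0.17 under mitotane. The groups did not overlap, and the change was 0.34 ± 0.12 with 7 arrays (unadjusted p = 0.013) and 0.54 ± 0.18 with 8. CYP26B1, which breaks down retinoic acid, gave 0.42 ± 0.21 with 7 arrays and 0.66 ± 0.25 with 8.

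Several clock genes read higher under mitotane on slides 1 to 3, though none passed the adjusted test. PER3 (NM_016831), a period gene of the clock's negative limb, read -0.72, 0, -0.11 and -1.0 under control and 0.64, 0.46, 0.45 and 0.47 under mitotane. Mitotane arrays lay in a narrow band above every control array, by 1.36, 0.46, 0.56 and 1.46 on slides 1 to 4. The change was 0.78 ± 0.22 with 7 arrays (interval 0.32 to 1.25, unadjusted p = 0.00286) and 0.96 ± 0.23 with 8 (unadjusted p = 0.000943). DBP (NM_001352), a clock-driven transcription factor, read -0.62, 0.019, -0.47 and -0.79 and 0.29, 0.37, 0.21 and -0.04. It was higher under mitotane on all 4 slides, although mitotane replicate 4 was below control replicate 2, and gave 0.56 ± 0.16 with 7 arrays and 0.67 ± 0.17 with 8. TEF and HLF, relatives of DBP in the same family, gave 0.59 ± 0.16 and 0.49 ± 0.23 with 7 arrays, and HLF 0.37 ± 0.23 with 8. Control replicate 4 read 10.63 for TEF against -0.52 to 0.59 on the other 7 arrays, so the 8-array value of -2.11 ± 1.72 rests on that array.

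Of the 15 clock genes tested, 3 were higher at an unadjusted p under 0.05 with 7 arrays and 0 lower, beside 3.91% and 2.78% of all identifiers. With 8 arrays 2 were higher and 1 lower, beside 4.72% and 1.15%. The list's median was 0.12 with 7 arrays, 0.055 with 8 and 0.28 over slides 1 to 3. Of the clock's positive limb, CLOCK gave -0.27 ± 0.15 with 7 arrays and 0.045 ± 0.25 with 8, so that its sign turned with control replicate 4. PER2 and ARNTL (BMAL1), named after their values were seen, gave 0.63 ± 0.44 and -0.26 ± 0.15 with 7 arrays and 0.78 ± 0.41 and -0.79 ± 0.36 with 8, and control replicate 4 read 2.07 for ARNTL. The labels used here give no hour of sampling, and whether the groups were sampled at the same hour was not tested.

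HSPA1A and HSPH1, chaperones that unfolded protein induces through HSF1, were highest on mitotane replicate 3. HSPA1A read -0.10, -0.10, 0.47 and -1.15 under control and 0.13, 0.59, 2.74 and 0.46 under mitotane. The change was 0.89 ± 0.44 with 7 arrays and 1.20 ± 0.45 with 8, and HSPA1A and HSPA1B are near-identical copies whose probes may read both. HSPH1 read 0.16, 0.034, 0.43 and -0.96 and 0.087, 0.59, 1.01 and 0.58, and gave 0.36 ± 0.17 with 7 arrays and 0.65 ± 0.25 with 8. HSP90AA1, an inducible chaperone, gave 0.43 ± 0.20 with 7 arrays and 0.65 ± 0.24 with 8, and 0.026 and 0.29 through a second identifier. Of 16 chaperone and proteasome genes, 0 had an unadjusted p under 0.05 with 7 arrays, beside 6.69% of all identifiers. With 8 arrays 4 were higher at that level, beside 4.72%. The list's median value was lowest on mitotane replicate 3, at -0.051, against -0.037 to 0.18 on the other 7 arrays.

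**Figure D3:**
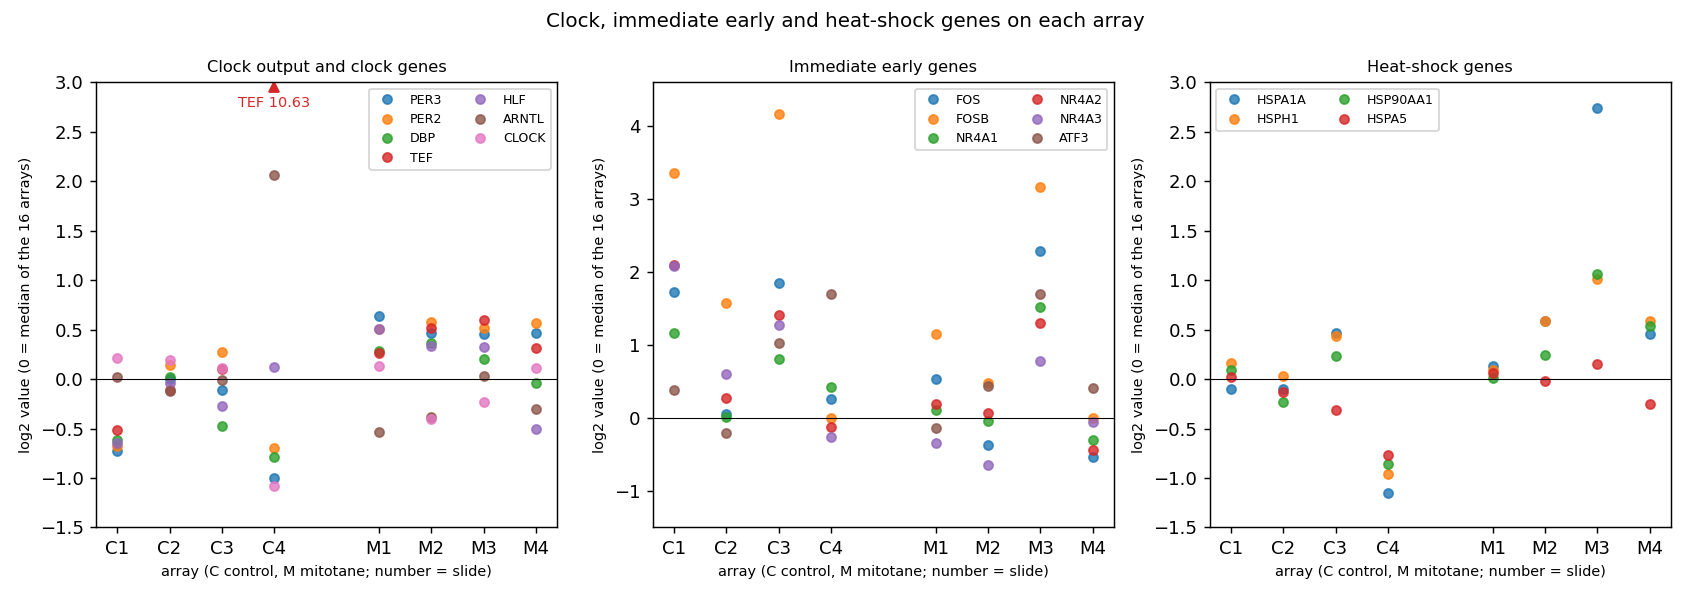
Log2 values (y axis; 0 is the median of the 16 arrays) of clock, immediate early and heat-shock genes on each array (x axis; C control, M mitotane, number = slide); each point is 1 gene on 1 array, and TEF on control replicate 4, at 10.63, is drawn at the top edge. PER3 and PER2 lie between 0.45 and 0.64 on all 4 mitotane arrays, FOS and FOSB are high on slide 3 in both groups, and HSPA1A is highest on mitotane replicate 3 at 2.74.

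Growth, hypoxia and cell cycle genes included several of the lower values. IRS1 (NM_005544), the adaptor of insulin and IGF receptors, read 0.49, 0.67, 0.83 and 0.046 under control and 0.16, -0.79, -0.088 and 0.10 under mitotane. With 7 arrays the groups did not overlap, at -0.82 ± 0.24 (unadjusted p = 0.00425), and with 8 they overlapped at -0.66 ± 0.25 (unadjusted p = 0.0162). MEST, an imprinted gene of growth, was -0.52 ± 0.17 with 7 arrays and -0.23 ± 0.24 with 8. IGF2, the growth factor typically high in adrenocortical carcinoma and named here after its value was seen, gave 0.01 ± 0.14 with 7 arrays, interval -0.30 to 0.32, and 0.18 ± 0.18 with 8.

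Among 19 hypoxia and glycolysis genes, 3 were lower and 0 higher at an unadjusted p under 0.05 with 7 arrays, beside 2.78% and 3.91% of all identifiers. With 8 arrays 1 was lower and 1 higher, neither of them among those 3, beside 1.15% and 4.72% of all identifiers. P4HA1, a collagen prolyl hydroxylase, read 0.53, 0.65, 0.58 and -0.92 under control and 0.25, -0.09, 0.046 and 0.15 under mitotane. Control replicates 1 to 3 were all above the mitotane arrays and control replicate 4 was below them, so the change was -0.50 ± 0.13 with 7 arrays and -0.12 ± 0.28 with 8. PDK1, a kinase that inhibits pyruvate dehydrogenase, was -0.66 ± 0.24 with 7 arrays and -0.37 ± 0.29 with 8. HIF1A, the hypoxia-inducible factor itself, was -0.26 ± 0.12 and -0.059 ± 0.18. The median of the list was 0.0041 with 7 arrays and -0.016 with 8.

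Replication and mitosis lists had medians of -0.044 over 24 genes and 0.015 over 27 with 7 arrays, and 0.12 and 0.14 with 8. PCNA, the sliding clamp of DNA polymerase, read 0.22, 0.24, 0.087 and 0.20 under control and 0.091, -0.061, -0.24 and -0.077 under mitotane. The groups overlapped only between mitotane replicate 1 and control replicate 3, and the change was -0.25 ± 0.11 with 7 arrays and -0.26 ± 0.12 with 8 (unadjusted p = 0.0352 and 0.0467). With 7 arrays the mitosis list had members on both sides: the spindle motor KIF11 and the checkpoint protein MAD2L1 gave -0.41 ± 0.14 and -0.32 ± 0.13, while the mitotic kinases AURKB and PLK1 gave 0.25 ± 0.12 and 0.32 ± 0.15. These 4 of 27 had an unadjusted p under 0.05 with 7 arrays, beside 6.69% of all identifiers. With 8 arrays KIF11 and MAD2L1 gave -0.14 ± 0.22 and -0.11 ± 0.19, AURKB 0.50 ± 0.20 and PLK1 -0.012 ± 0.26. AURKB alone of the 27 was then under 0.05, beside 5.87% of all identifiers. In the WNT list of 18, 2 were higher at that level with 7 arrays, AXIN1 at 0.33 ± 0.14 and TCF7 at 0.29 ± 0.13, beside 3.91% of all identifiers. With 8 arrays both turned, to -0.079 ± 0.30 and -0.43 ± 0.47, with control replicate 4 at 1.47 and 2.84. WNT4, a ligand of the outer adrenal cortex, did not overlap between groups at 0.31 ± 0.15 with 7 arrays and 0.49 ± 0.19 with 8, and CTNNB1 (beta-catenin), named after its value was seen, gave -0.049 ± 0.12 and -0.23 ± 0.17.

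Interferon-response genes, 19 tested, had a median of 0.13 with 7 arrays, and 15 of 19 had a change above 0, beside 61.7% of all identifiers (60.1% with 8 arrays). IFIT2 (NM_001547) read -0.58, -0.10, -0.25 and 1.54 under control and 0.35, 0.48, 0.15 and 0.50 under mitotane. Mitotane arrays were above control replicates 1 to 3, and control replicate 4 was above them all. The change was 0.68 ± 0.16 with 7 arrays (unadjusted p = 0.00086) and 0.22 ± 0.33 with 8. TAP1, which carries peptides into the ER for HLA class I, was 0.28 ± 0.12 with 7 arrays and 0.51 ± 0.19 with 8. It was the only 1 of 13 antigen presentation genes with an unadjusted p under 0.05 with 7 arrays, beside 6.69% of all identifiers.

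**Figure D4:**
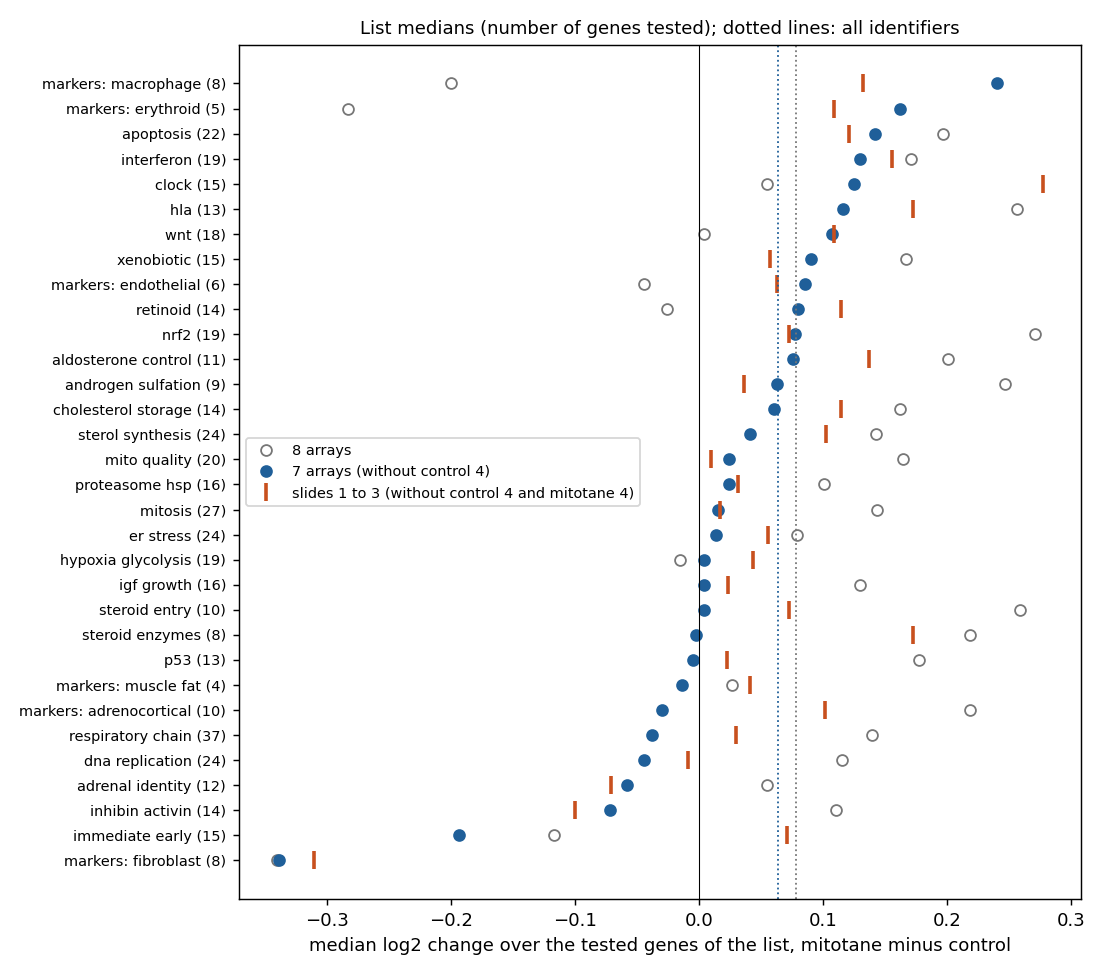
Median log2 change, mitotane minus control (x axis), over the tested genes of each list (y axis, number tested in brackets); open grey circles are 8 arrays, blue circles 7 arrays and orange bars slides 1 to 3, and dotted lines give the median of all identifiers. The steroid entry and enzyme lists lie at 0.26 and 0.22 with 8 arrays and at 0.0035 and -0.0025 with 7, and the fibroblast markers lie lowest at -0.34 in both.

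Ranked by unadjusted p, among named identifiers well above background on every array of the comparison and without overlap between groups, RRBP1 and TSPAN18 were among the 8 highest-ranked higher genes in both comparisons. RRBP1 (NM_001042576), an ER membrane protein that binds ribosomes, read 0.17, 0.04, -0.043 and -0.21 under control and 0.37, 0.59, 0.68 and 0.50 under mitotane. The mitotane arrays were above every control array, by 0.21, 0.55, 0.72 and 0.71 on slides 1 to 4, and the change was 0.48 ± 0.11 with 7 arrays (unadjusted p = 0.000693) and 0.55 ± 0.13 with 8. TSPAN18 (NM_130783), a tetraspanin, read -0.22, -0.36, -0.57 and -1.31 and 0.059, 0.37, 0.76 and 0.31. It did not overlap either, and gave 0.76 ± 0.18 with 7 arrays and 0.99 ± 0.23 with 8.

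The other higher genes with 8 arrays were IGDCC3, OTX1, IL22RA1, PLAUR, ADRA2C and H1-2. IGDCC3, an immunoglobulin-family membrane protein, gave 0.92 ± 0.21 with 8 arrays and 0.78 ± 0.20 with 7. OTX1, a homeobox factor, gave 0.69 ± 0.18 and 0.53 ± 0.14, and IL22RA1, a subunit of the interleukin-22 receptor, 0.70 ± 0.19 and 0.52 ± 0.14. PLAUR, the urokinase receptor, had the tightest groups of the 6, with -0.29, -0.18, -0.17 and -0.29 under control and 0.17, 0.19, 0.39 and 0.22 under mitotane, and gave 0.48 ± 0.13 and 0.46 ± 0.13. ADRA2C, an alpha-2 adrenergic receptor, gave 0.68 ± 0.19 and 0.52 ± 0.17, and the linker histone H1-2 0.71 ± 0.20 and 0.56 ± 0.19. These 6 were chosen for no overlap with 8 arrays, so their groups could not overlap with 7.

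With 7 arrays, the other higher genes included IFIT2, ORAI3, PSD4, PNLIPRP2 and KCNAB2. ORAI3 (NM_152288), a subunit of store-operated calcium channels, read -0.11, -0.14, -0.26 and -0.86 under control and 0.23, 0.98, 0.99 and 1.09 under mitotane. Mitotane replicates 2 to 4 were close together and replicate 1 lower, though above every control, and the change was 0.99 ± 0.24 with 7 arrays and 1.16 ± 0.25 with 8. PNLIPRP2, a pancreatic lipase relative, gave 1.44 ± 0.36 and 1.83 ± 0.41. PSD4 and KCNAB2 rested on the absence of control replicate 4, which read 0.99 and 2.40: they gave 0.44 ± 0.11 and 0.68 ± 0.17 with 7 arrays and 0.12 ± 0.23 and -0.056 ± 0.49 with 8.

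RNF19A and SULF1 were among the 8 highest-ranked lower genes in both comparisons. RNF19A (NM_183419), a ubiquitin ligase, read 0.50, 0.68, 0.55 and 1.84 under control and 0.12, -1.12, -0.48 and 0.029 under mitotane. The groups did not overlap, with the largest gap to mitotane replicate 2, and the change was -0.94 ± 0.27 with 7 arrays and -1.26 ± 0.32 with 8. SULF1 (NM_015170), which removes sulfate from heparan chains outside the cell, read -0.089, 0.01, 0.13 and -0.19 and -0.33, -0.21, -0.67 and -0.67, without overlap, and gave -0.48 ± 0.13 and -0.43 ± 0.14. With 8 arrays the others were R3HDM2, GLO1, DYNC2H1, RIOK2, YWHAH and MTX2, from -0.66 for YWHAH, a 14-3-3 protein, to -0.45 for MTX2, a mitochondrial import protein, with GLO1, which detoxifies methylglyoxal, at -0.61. The 7-array changes of these 6 ran from -0.47 (GLO1) to -0.30 (MTX2). Being chosen for no overlap with 8 arrays, they could not overlap with 7. With 7 arrays the others were UEVLD, ZDBF2, PKD2, P4HA1, CSF1R and UACA, from -0.64 for CSF1R to -0.43 for PKD2 (polycystin-2, a cation channel), and -0.31 and -0.26 with 8. For all 6 the control replicate 4 value lay within or below the mitotane values, and with 8 arrays the groups overlapped.

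**Figure D5:**
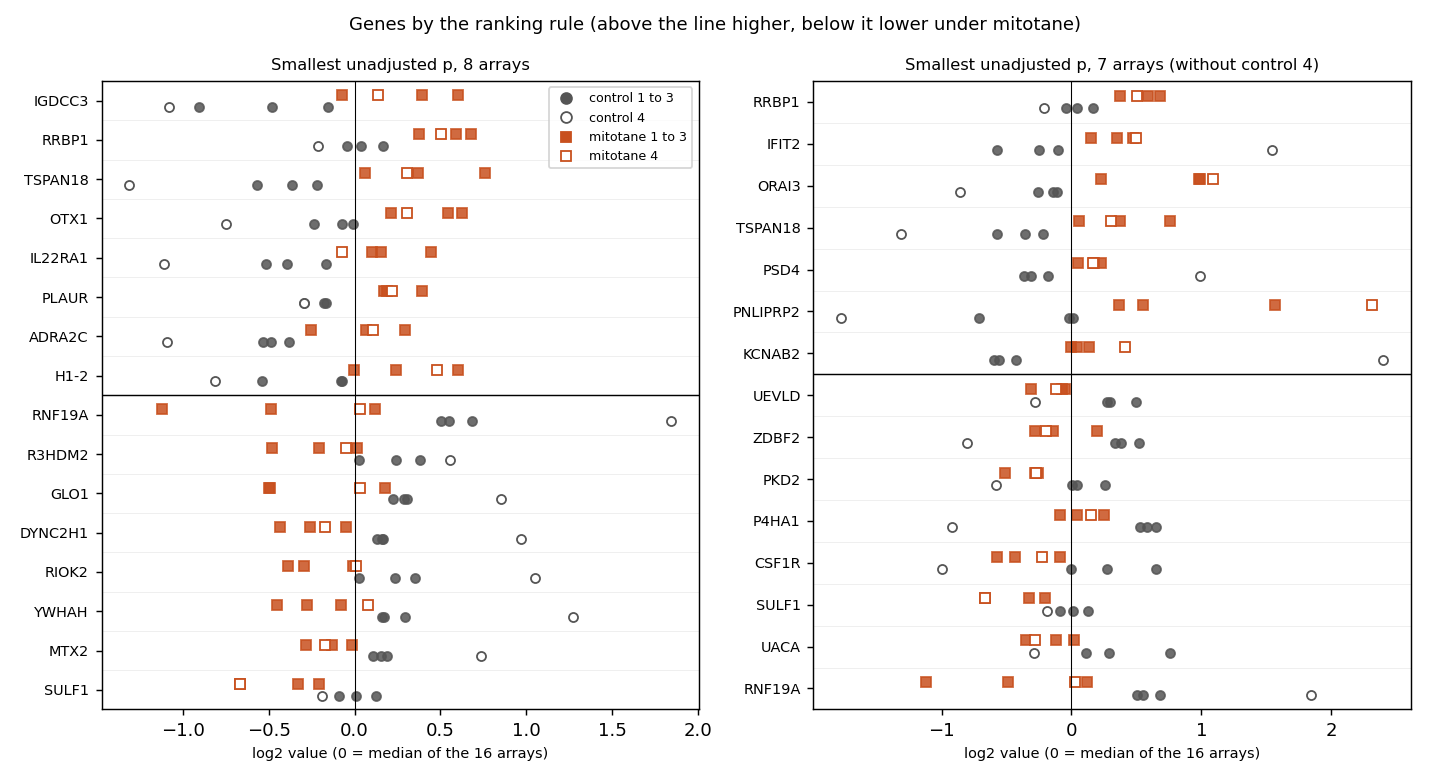
Log2 values (x axis; 0 is the median of the 16 arrays) of up to 8 higher and 8 lower named genes with the smallest unadjusted p (y axis) in the comparison of 8 arrays (left) and of 7 arrays (right); circles are control and squares mitotane, open symbols replicate 4. On the left no gene's groups overlap, as the rule that chose the genes requires. On the right KCNAB2, PSD4, IFIT2 and P4HA1 show control replicate 4, at 2.40, 0.99, 1.54 and -0.92, on the far side of the mitotane arrays.

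Markers of adrenocortical cells were present on these arrays: 9 of 10 were well above background on all 8. Of the marker lists of other cell types, counting genes found on the array, 4 of 10 endothelial, 7 of 11 fibroblast and 8 of 11 macrophage markers were well above background on all 8. The same held for 5 of 6 red cell and 3 of 10 muscle and fat markers. The members PECAM1, TEK and CLDN5 (endothelium), COL3A1, LUM and POSTN (fibroblasts), C1QA and MRC1 (macrophages), HBB (red cells) and ADIPOQ, PLIN1 and LEP (fat) were not well above background on any array. The summed level of the 11 fibroblast markers, tested or not, in multiples of each array's 75th percentile, was 37.5, 38.4, 35.1 and 189 on control and 15.9, 100, 20.2 and 30 on mitotane arrays. COL1A1 read -0.51, -0.67, -0.91 and -0.71 under control and -2.58, 0.91, -2.13 and -1.42 under mitotane, so that mitotane replicate 2 was the highest array and mitotane 1 and 3 the lowest. COL1A2 and DCN, named after their values were seen, ordered the mitotane arrays alike, with mitotane 2 at 0.83 and 1.39. PDGFRB, a pericyte and fibroblast receptor, was -0.65 ± 0.29 with 7 arrays and -0.32 ± 0.33 with 8.

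The macrophage list summed to 2.8, 2.63, 2.95 and 10.1 on control and 2.27, 4.22, 2.66 and 4.16 on mitotane arrays. CSF1R was -0.64 ± 0.18 with 7 arrays (unadjusted p = 0.00285) and -0.31 ± 0.27 with 8. Of the 8 tested markers, 6 had a change above 0 with 7 arrays and 0 with 8. The red cell list summed to 9.45, 7.72, 12.7 and 21.2 on control and 3.11, 5.04, 16.1 and 2.61 on mitotane arrays, and HBD, a globin, read 1.18, 0.86, 1.82 and 1.39 under control and -1.10, -0.18, 1.73 and -1.81 under mitotane. For HBD, mitotane replicates 1, 2 and 4 were low and replicate 3 was as high as control, with a change of -1.62 ± 0.92 with 7 arrays and -1.65 ± 0.82 with 8. HBD was the lowest of the 5 tested red cell markers. Of these 5, 3 had a change above 0 with 7 arrays and 0 with 8, with medians of 0.16 and -0.28. EMCN, an endothelial sialomucin, was 0.86 ± 0.28 with 7 arrays and 0.37 ± 0.40 with 8, the highest of the 6 tested endothelial markers in both. Of these 6, 4 had a change above 0 with 7 arrays and 3 with 8, with medians of 0.085 and -0.045. The probes were designed for human transcripts, and whether these marker signals came from host or tumour cells was not tested. Their part in the other differences was not tested either.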

How the data were processed

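RNA of H295R tumours was labelled with Cy3 and hybridised to human Agilent arrays, per the labels' protocols, and scanned with Agilent Feature Extraction 11.0.1, per the submitters' processing notes. The deposited series table holds log2 values. Set against the deposited scanner intensity values, it followed the processed intensity scaled near each array's 75th percentile and centred on each probe's median over the 16 arrays. No label or header states how the authors made it. One combined-treatment scanner file was not used here.

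Probes were averaged per identifier (29094). The 21045 identifiers with a probe well above background on at least 4 of the 8 arrays were tested with limma 3.58.1 in R 4.3.3 (lmFit and eBayes over all 4 treatment groups, two-sided, Benjamini-Hochberg over all identifiers tested), with and without control replicate 4, and the method was tested on simulated data. The number of arrays limits the precision. Of 526 genes in 32 lists, 518 were found on the array and 474 tested.

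The genes and lists were chosen with earlier results of these data known. Symbols came from general knowledge of RefSeq identifiers and were not checked against a table. Symbols of the ranked genes, and further identifiers of some list genes such as P4HA1, were assigned after the identifiers had been ranked by p. The named genes were, in each comparison, the 8 per direction with the smallest unadjusted p among named identifiers well above background on every array and without overlap; the steroid, regulator, cholesterol and ER stress genes by value; and up to 4 of each other list by p with 7 arrays. Exceptions are marked, and some genes that the rule names are not reported here.

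Deviations of same-slide control and mitotane arrays from their group means had correlations of 0.36, -0.06, 0.06 and 0.25 on slides 1 to 4. Those of arrays on different slides ran from -0.41 to 0.46, a range that holds all the same-slide values. The slide was taken as a batch because the labels give it. For the alternative with normexp background correction, the median spot signal (gMedianSignal) stood in for the mean signal, which the files used here do not give. Other alternatives varied the scaling, the filter, the probe chosen, the arrays fitted, array weights and each left-out array.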

Additional observations from a re-analysis of the deposited data

Results flagged for a closer look

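An array was marked where its gap to the nearest of the other 3 arrays of its group was larger, as a share of the group's range, than Dixon's 95% critical value, which chance gives in about 1 in 20 groups. Of 240 groups of 4 values checked, 41 were marked, and control replicate 4 was the array that stood apart in 31 of them. Many of the genes checked were named for a small unadjusted p without that array, a choice that favours such gaps. The 41 therefore cannot be set against the rate of 1 in 20. It stood apart in its 511 outlier spots (281 to 313 on the other control arrays), its median correlation with other arrays (0.871), its median value (-0.31) and the SD of its values (1.39). Its log2 values stood above the other control arrays for TEF (10.63), ABCG2 (4.91), TCF7 (2.84), KCNAB2 (2.40), ARNTL (2.07), SRF (1.95), RNF19A (1.84), AXIN1 (1.47), EMCN (1.31), YWHAH (1.27), CYP2B6 (1.25), PLK1 (1.10), PSD4 (0.99), DYNC2H1 (0.97), GLO1 (0.85) and MTX2 (0.74). They stood below the other control arrays for CLOCK (-1.08), AURKB (-1.06), PDGFRB (-0.96), KIF11 (-0.93), P4HA1 (-0.92), CYCS (-0.86), DNM1L (-0.80), ZDBF2 (-0.80), NSDHL (-0.75), MEST (-0.69) and HIF1A (-0.59).

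Mitotane replicate 4 stood apart for CYP11B2 (-0.94), CYP21A2 (-0.71), EMCN (0.93) and STAR (-0.47), and the first 2 of these are steroid enzymes for which it read lower than the other mitotane arrays, as it did for STAR. Mitotane replicate 3 stood apart for PKD2 (-0.51) and PPARGC1B (0.73). Mitotane replicate 1 stood apart for ORAI3 (0.23) and PER3 (0.64) and in its median correlation with other arrays (0.988, against 0.985 to 0.986 on the other mitotane arrays). Control replicate 1 stood apart for ERN1 (-0.34).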

How the results depend on the processing

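The count of identifiers past the adjusted threshold was 0 in both comparisons and under every alternative run apart from array weights, which gave 3 with 8 arrays and 1 with 7; the slide as a block changed no call. Counts at an unadjusted p under 0.05 moved by over 1.5 times as follows. With 8 arrays, against 993 higher and 243 lower, median centring gave 464 and 459, quantile normalization 539 and 692, fitting only the 2 groups 413 and 95, the same with the slide as a replicate block 325 and 124, and array weights 2656 and 1664. With 7 arrays, against 823 higher and 584 lower, normexp with quantile normalization gave 971 lower, median centring 882 lower, quantile normalization 1459 lower, fitting only the 2 groups 1237 higher, and array weights 2922 and 1783. The causes of these moves were not tested. Leaving out 1 array at a time gave 509 to 1702 higher and 134 to 584 lower with 8 arrays, 555 to 1322 higher and 265 to 972 lower with 7, and 0 to 0 past the adjusted threshold. The slide as a block with all groups fitted gave 904 higher and 246 lower with 8 arrays and 986 and 590 with 7. Within each comparison, sign changes of the named genes over the alternatives (122 values with 8 arrays, 71 with 7) were limited to genes whose own unadjusted p was 0.05 or above. The 7-array alternatives all leave out control replicate 4. Between the comparisons, genes under 0.05 with 7 arrays did turn sign with 8, among them AXIN1, TCF7, PLK1, DNM1L, NPC2, KCNAB2 and TEF. Control replicate 4, with 61.7% of probes well above background, limits what the 8-array values can show for dim probes.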

Other observations

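Genes that control aldosterone output through potassium, calcium and angiotensin II had a median log2 change of 0.075 over 11 tested with 7 arrays, and 0 had an unadjusted p under 0.05. The 9 tested genes of adrenal androgen synthesis and sulfation had a median of 0.063, with SULT2A1, which sulfates DHEA, at -0.13 ± 0.26. The 14 tested genes of inhibin and activin signalling, whose ligands the adrenal cortex makes, had a median of -0.072, with 0 at an unadjusted p under 0.05. The 13 tested p53 targets had a median of -0.0055, again with 0. All these values are without control replicate 4, where 6.69% of all identifiers had an unadjusted p under 0.05.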
